A study of Homo sapiens with 12 samples.

Results

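Chromatin accessibility was examined at 9 genes of the Notch pathway, which were NOTCH1, NOTCH2, NOTCH3, JAG1, JAG2, DLL1, HES1, HEY1 and FBXW7, out of 20033 protein-coding genes in the RefSeq table for GRCh38.p14. A peak was assigned to a gene when it lay within 10 kb of the gene's span and reached a height of 3 or more. Height is the authors' pileup at 1 position, in whole units, and is not a count of reads. For each gene and library, the number of such peaks, the tallest height and its rank within the library were taken. Between 31 and 40 peaks were found at the 9 genes in a KYSE150 library and between 42 and 51 in a KYSE510 library.

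The data were ATAC-seq peak lists, in which a transposase cuts accessible DNA and piled-up fragments mark open sites. Both cell lines, KYSE150 and KYSE510, are established human oesophageal squamous cell carcinoma lines, grown in RPMI-1640 with serum. Each line gave 3 libraries from control cells and 3 from cells silenced for HCP5, a long non-coding RNA, which makes 12. The titles of the silenced libraries begin with Sh, which the labels do not spell out. The method of silencing and what the controls received are not given further in the sources used here, and peaks near a gene cannot check the level of an RNA. The labels do not say that the 3 libraries of a group came from separate cultures, so each p-value measures only the spread between these libraries. The title of the series concerns apoptosis and c-Myc, and the comparisons here ask whether open chromatin at Notch genes differed after silencing and between the lines.

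Notch receptors are transmembrane proteins that bind Jagged and Delta-like ligands on neighbouring cells. Binding exposes the receptor to ADAM proteases and then to gamma-secretase, and the released intracellular domain joins RBPJ in the nucleus to switch on targets such as HES and HEY repressors. FBXW7, the substrate-binding part of a ubiquitin ligase, marks the intracellular domain for degradation. In squamous epithelium Notch signalling is known for driving keratinocytes towards differentiation, and NOTCH1 and FBXW7 are recurrently mutated in squamous cancers.

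The lists of the lines differed in ways that bear on every comparison between them. The full lists were longer in KYSE150, with 547125 to 630780 peaks against 115868 to 135948 in KYSE510. Only 9.67 to 11.1% of the KYSE150 peaks reached a height of 3, against 88.8 to 91.5% in KYSE510, so KYSE150 libraries held 52869 to 63295 peaks of height 3 or more and KYSE510 libraries 104208 to 123109. The background implied by height and fold enrichment was 0.083 to 0.108 units in KYSE150 and 0.18 to 0.217 in KYSE510, and the median height of these peaks was 5 in every library. Line and any difference in sequencing depth or peak calling cannot be told apart, and within-library ranks were used for that reason. TP63, KRT5, KRT14, DSG3 and SFN, which mark squamous epithelium, had a peak in all 12 libraries, at 5 to 19 units in KYSE150 and 4 to 36 in KYSE510. Of the hepatocyte genes, ALB had none in any library, while APOA2 had one in all 12, at 18 to 33 units in KYSE150 and 30 to 56 in KYSE510. Windows around COL1A1 and PDGFRB (fibroblasts), CDH5 and PECAM1 (endothelium) and PTPRC (leucocytes) also held a peak in every library. Their heights ran from 4 units at PECAM1 to 52 at COL1A1. COL1A2, of fibroblasts, had a peak in 4 KYSE510 libraries and 6 KYSE150 libraries. CD3E, of leucocytes, had one in 4 KYSE150 libraries and 6 KYSE510 libraries. Such windows can include neighbouring genes.

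Promoter sequences show where the open sites sit. Of the 9 genes, 7 had entries in the RefSeq promoter table, and the 250 bases before the start were searched on both strands for TGGGAA, the core that RBPJ recognises. HES1 alone held the core, with 2 copies whose first bases lie at -84 and -70 from the start, capitalised below. The core occurs in 20.9% of all 34935 promoters of the same length, and GTGGGAA, which contains it, in 5.41%. HES1 is shown with the other promoters that carried a peak in all 12 libraries, and with that of NOTCH3, which carried a peak in none. Only HES1 has capitals, since the others lack the core.
HES1 promoter (chr3:194135898-194136147, plus strand): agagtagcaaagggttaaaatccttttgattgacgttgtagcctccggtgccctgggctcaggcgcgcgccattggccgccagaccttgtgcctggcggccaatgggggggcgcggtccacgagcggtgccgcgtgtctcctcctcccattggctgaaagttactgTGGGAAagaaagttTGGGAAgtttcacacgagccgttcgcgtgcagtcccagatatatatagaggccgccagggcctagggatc
NOTCH1 promoter (chr9:136546049-136546298, minus strand): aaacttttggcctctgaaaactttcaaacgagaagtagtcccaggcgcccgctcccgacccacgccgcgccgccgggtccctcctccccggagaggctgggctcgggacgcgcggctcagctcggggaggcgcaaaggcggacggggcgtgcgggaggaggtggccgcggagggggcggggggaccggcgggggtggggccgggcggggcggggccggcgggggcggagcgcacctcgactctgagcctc
JAG1 promoter (chr20:10674000-10674249, minus strand): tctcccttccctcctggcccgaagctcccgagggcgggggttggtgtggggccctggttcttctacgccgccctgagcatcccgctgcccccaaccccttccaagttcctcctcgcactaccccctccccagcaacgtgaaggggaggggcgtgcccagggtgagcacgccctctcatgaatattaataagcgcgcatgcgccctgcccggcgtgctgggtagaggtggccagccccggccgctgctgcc
FBXW7 upstream promoter (chr4:152536093-152536342, minus strand): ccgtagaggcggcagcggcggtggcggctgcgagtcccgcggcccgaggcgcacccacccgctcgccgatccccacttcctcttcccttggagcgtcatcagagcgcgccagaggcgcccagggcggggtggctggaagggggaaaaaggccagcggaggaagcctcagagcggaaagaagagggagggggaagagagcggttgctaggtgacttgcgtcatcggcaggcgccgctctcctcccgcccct
FBXW7 internal promoter (chr4:152352827-152353076, minus strand): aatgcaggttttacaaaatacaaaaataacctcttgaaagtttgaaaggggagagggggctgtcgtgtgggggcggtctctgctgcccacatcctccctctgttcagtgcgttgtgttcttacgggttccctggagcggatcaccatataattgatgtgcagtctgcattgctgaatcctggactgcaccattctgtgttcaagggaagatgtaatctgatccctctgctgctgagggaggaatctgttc
NOTCH3 promoter (chr19:15200996-15201245, minus strand): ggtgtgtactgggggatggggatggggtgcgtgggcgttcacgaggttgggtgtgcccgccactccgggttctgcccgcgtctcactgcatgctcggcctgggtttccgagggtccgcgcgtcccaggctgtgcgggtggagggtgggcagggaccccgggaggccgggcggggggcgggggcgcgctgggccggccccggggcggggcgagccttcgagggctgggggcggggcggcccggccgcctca

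Across all 34935 listed promoters, 23% carried a peak in all 12 libraries and 48.6% in none. The promoter of NOTCH3 was without a peak in every library, and those of NOTCH2 and JAG2 carried one in 1 library each, of 3 and 5 units. At the region over the NOTCH2 promoter (chr1:120069306-120069715), 4 more libraries had a peak of height 2, under the cut of 3. The promoters of NOTCH2, NOTCH3 and JAG2 were 72.8, 78.0 and 81.6% GC. Those of HES1, NOTCH1 and JAG1, with a peak in all 12 libraries, were 59.2, 76.0 and 68.4% GC. Over all promoters the median was 65.2% GC for those with a peak in all 12 libraries and 49.6% for those with none. The part of GC content in these peaks was not tested. FBXW7 has 4 listed promoters. The most upstream (chr4:152536093-152536342) and an internal one (chr4:152352827-152353076) carried a peak in all 12 libraries, and were 70.4 and 49.2% GC. The others carried a peak in none, and were 34.4 and 77.2% GC. The 5′ end of NOTCH2 is shared almost letter for letter with NOTCH2NL copies. How reads that map to more than 1 copy were handled is not given in the sources used here. Its part in the low or missing peaks at the NOTCH2 promoter was not tested.

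Members differed widely in the height of their tallest peak. In KYSE150 the order of the medians over 6 libraries was JAG1 (28.5 units), HES1 (22), FBXW7 (13), HEY1 (10.5), NOTCH2 (8.5), NOTCH1 (7.5), JAG2 (6.5), NOTCH3 (5.5) and DLL1 (3). In KYSE510 it was HES1 (35.5), FBXW7 (21.5), JAG1 (20), DLL1 (13.5), NOTCH1 (13), NOTCH3 (10.5), JAG2 and HEY1 (10 each) and NOTCH2 (7.5). HES1, a transcriptional repressor switched on by Notch, stood clear of every other member in raw height in KYSE510. Its lowest library there (31 units) was above the highest of FBXW7 (27). Its tallest peak exceeded 97.5 to 98.5% of the peaks of a KYSE510 library. By fold enrichment over local background the order was the reverse. The tallest peaks in KYSE510 were 5.36 to 7.31 fold at HES1 and 9.24 to 11.9 fold at FBXW7. In KYSE150 the ranges of JAG1 (18 to 36 units) and HES1 (15 to 30) overlapped, and every other pair of neighbours in either order overlapped or touched. The tallest DLL1 peak exceeded 13.4 to 36.9% of the peaks of the 5 KYSE150 libraries that had one, and 81.0 to 89.9% of those of a KYSE510 library. Long genes give a wider window, from 2.59 kb of span at HES1 to 216 kb at FBXW7, so a tallest peak in a long gene is drawn from more sequence.

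**Figure D1:**
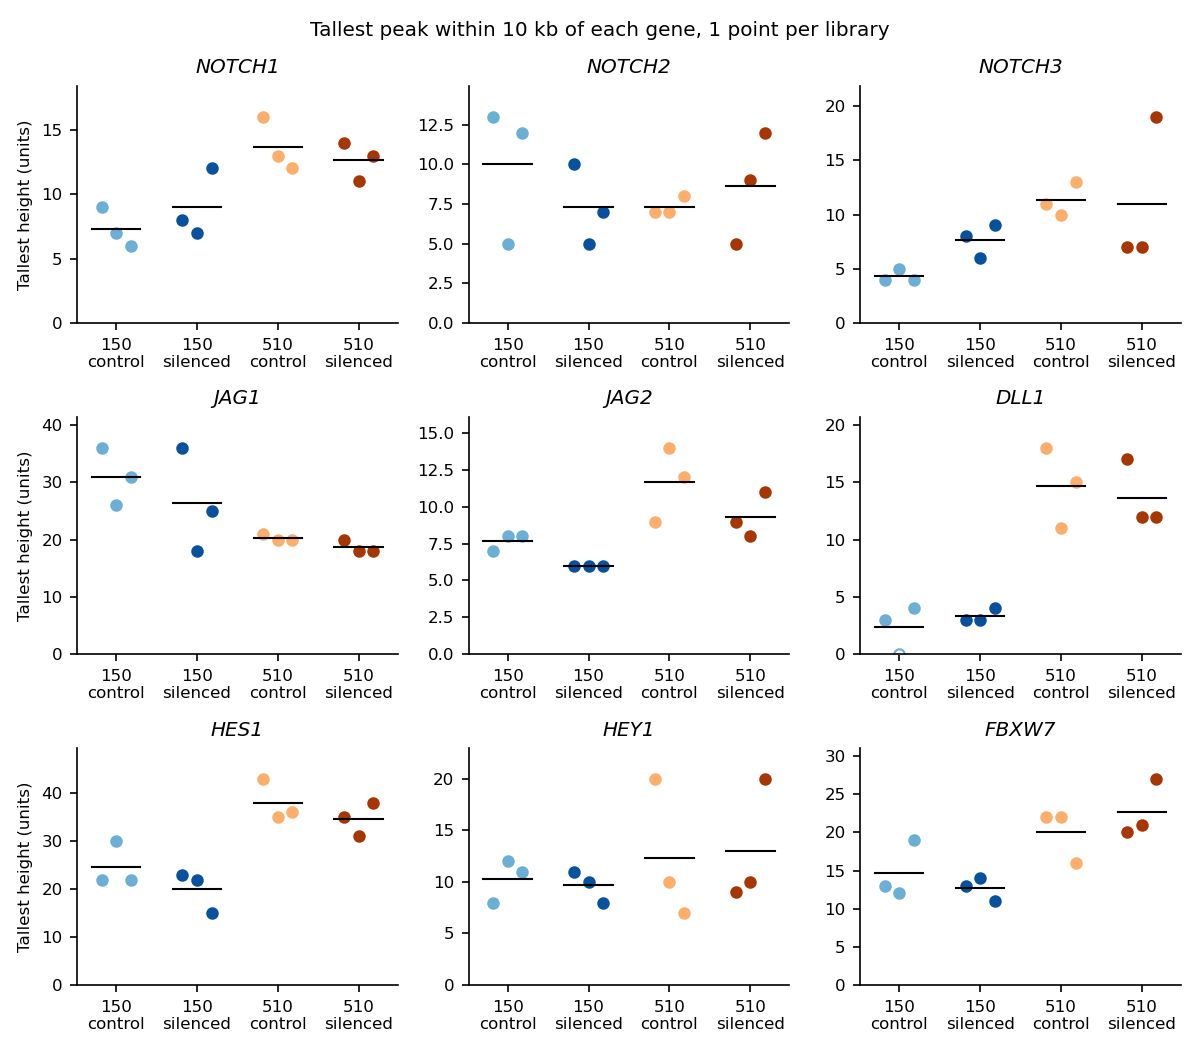
Tallest peak height within 10 kb of each gene (y axis, units of pileup height), with 1 point per library in the 4 groups and a bar at the group mean. An open point at 0 is a library with no peak of height 3 or more. DLL1 and HES1 are the members whose KYSE150 and KYSE510 libraries do not overlap, where 23% of 19074 genes were higher in KYSE510 without overlap. The 3 silenced KYSE150 libraries lie above the 3 controls at NOTCH3 and below them at JAG2. How many of all genes separate by treatment in this way was not counted.

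Silencing of HCP5 moved no member past the test in either line. Gene scores, the normal scores of the within-library rank of each gene's tallest height, were compared by limma with Benjamini-Hochberg adjustment over all genes that had a peak in every library. Of 14305 genes in KYSE150 and 16591 in KYSE510, 0% were called (0 and 0), with smallest adjusted p-values of 0.595 and 0.137. At an unadjusted p under 0.05 there were 394 genes with a higher score and 351 with a lower one in KYSE150, and 597 and 520 in KYSE510. Members stood near this background. Their median change was -0.0026 against -0.0024 for all genes in KYSE150 and -0.071 against -0.0063 in KYSE510.

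Among the receptors, NOTCH3 had the largest difference after silencing. Its tallest peak was 4, 5 and 4 units in the KYSE150 controls and 8, 6 and 9 in the silenced libraries. All 3 silenced libraries were above all 3 controls. The share of all genes whose tallest heights separate in this way between treatments was not counted. On the score scale the difference was 1.04 ± 0.28 (SE, n = 3 per group; limma adjusted p = 0.795), with mean percentiles among genes of 5.28 and 28.2. In KYSE510 the NOTCH3 heights were 11, 10 and 13 in controls and 7, 7 and 19 after silencing, so the groups overlapped and the score difference was -0.17 ± 0.33 (adjusted p = 0.959). A test of whether silencing acted differently in the lines gave -1.24 ± 0.48 for NOTCH3 (limma adjusted p = 0.889), and 0% of 14072 genes were called in that test (0 genes, with 380 positive and 360 negative at an unadjusted p under 0.05). With a 50 kb window the KYSE150 difference at NOTCH3 turned to -0.27.

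The other receptors overlapped between treatments in both lines. NOTCH1, the main receptor of stratified epithelium, measured 9, 7 and 6 units in KYSE150 controls and 8, 7 and 12 after silencing. In KYSE510 it measured 16, 13 and 12 in controls and 14, 11 and 13 after silencing. Score differences were 0.49 ± 0.31 and -0.07 ± 0.20 (limma adjusted p = 0.956 and 0.973). In KYSE150 control library 1 and KYSE510 control library 3 the tallest peak lay at a site 9.59 kb outside NOTCH1 that overlaps SEC16A. In KYSE510 silenced library 1 it lay at a site 9.04 kb outside NOTCH1. NOTCH2 gave 13, 5 and 12 against 10, 5 and 7 in KYSE150, and 7, 7 and 8 against 5, 9 and 12 in KYSE510. Its differences of -0.17 ± 0.37 and 0.15 ± 0.28 were smaller than their errors.

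Ligand genes showed no called difference either. JAG1, the Jagged ligand with the tallest peaks of the set in KYSE150, measured 36, 26 and 31 units in KYSE150 controls and 36, 18 and 25 after silencing, and 21, 20 and 20 against 20, 18 and 18 in KYSE510. Its score differences were -0.03 ± 0.30 and -0.09 ± 0.20. JAG2, the second Jagged ligand, measured 7, 8 and 8 against 6, 6 and 6 in KYSE150. Those groups did not overlap, a separation whose share over all genes was not counted, and the rank difference was -0.15 ± 0.24 (limma adjusted p = 0.978). In KYSE510 JAG2 measured 9, 14 and 12 against 9, 8 and 11, a difference of -0.27 ± 0.25. Some of these heights come from a site 7.26 kb outside JAG2 that overlaps NUDT14. They are those of KYSE150 control library 1, KYSE150 silenced libraries 1 and 3, and KYSE510 silenced library 1. DLL1, a Delta-like ligand, had 1 KYSE150 control library without a peak and was not tested there. Its KYSE150 heights were 3, none and 4 in controls and 3, 3 and 4 after silencing. With absent peaks ranked lowest the DLL1 difference in KYSE150 was 0.28 ± 0.24 (limma adjusted p = 0.932), and in KYSE510, with 18, 11 and 15 against 17, 12 and 12 units, it was -0.06 ± 0.23.

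At the targets and at FBXW7 the groups overlapped throughout. HES1 measured 22, 30 and 22 units in KYSE150 controls and 23, 22 and 15 after silencing, and 43, 35 and 36 against 35, 31 and 38 in KYSE510, with score differences of -0.09 ± 0.26 and -0.09 ± 0.19. HEY1, a repressor of the same family, measured 8, 12 and 11 against 11, 10 and 8, and 20, 10 and 7 against 9, 10 and 20. Its differences were 0.12 ± 0.25 and 0.14 ± 0.32. FBXW7 measured 13, 12 and 19 against 13, 14 and 11, and 22, 22 and 16 against 20, 21 and 27. These gave 0.03 ± 0.26 and 0.21 ± 0.22. Apart from NOTCH3 in KYSE150, no member reached an unadjusted limma p under 0.05 in either line.

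**Figure D2:**
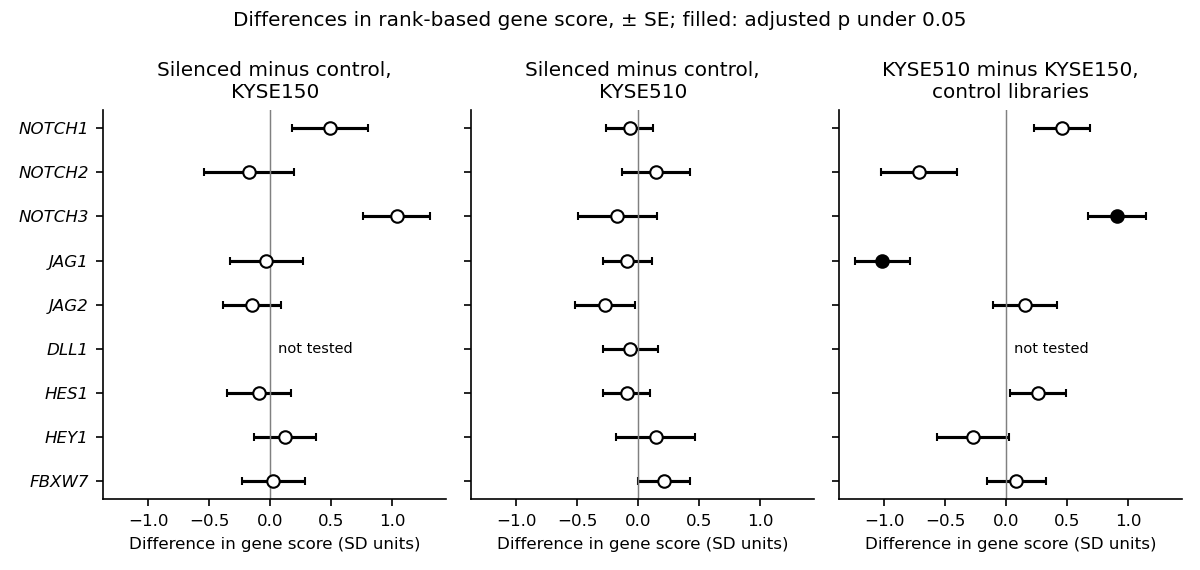
Difference in gene score (x axis, in SD units of the normal score) with its SE for each member, after silencing in KYSE150, after silencing in KYSE510, and between the lines in control libraries. Filled points have a limma adjusted p under 0.05, which only NOTCH3 and JAG1 reached, and only between the lines.

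The number of peaks gave 2 members in KYSE150 whose groups did not overlap, both lower after silencing. NOTCH1 had 7, 6 and 6 peaks in controls and 4, 4 and 5 after silencing, a mean of 6.33 ± 0.577 against 4.33 ± 0.577 (SD, n = 3). JAG1 had 7, 8 and 6 against 5, 5 and 4, a mean of 7 ± 1 against 4.67 ± 0.577. Each gave an exact two-sided permutation p of 0.1, the smallest that 10 splits allow. Over all 17849 genes with a KYSE150 peak, 2.66% were lower without overlap and 0.908% were higher. The silenced KYSE150 libraries also held 52869 to 61543 peaks of height 3 or more, against 60369 to 63295 in controls. After division by the library's own number of peaks, an alternative chosen after seeing the data, NOTCH1 and JAG1 remained lower without overlap, and DLL1, HES1 and FBXW7 were higher without overlap. Over all genes, 2.66% were lower and 7.93% higher without overlap under that division. With a minimum height of 5 no member separated in KYSE150, and with the gene span alone or with a 50 kb window JAG1 alone did. An FDR of at most 0.05 was also used in place of the height of 3, which admits peaks of height 2. With it, NOTCH1 and NOTCH3 were lower without overlap and JAG1 was not. The share of all genes that separated under these changes of height, window or FDR was not counted.

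In KYSE510 the peak numbers of the 9 members overlapped between treatments without exception, where 2.89% of 18941 genes were higher and 1.35% lower without overlap. Divided by the library's own number of peaks they overlapped too, where 3.44% of genes were higher and 5.96% lower. FBXW7 had 7, 10 and 8 peaks in controls and 8 in each silenced library. JAG1 had 8, 7 and 8 against 7 in each. NOTCH1 had 9, 5 and 8 against 7, 6 and 6. At NOTCH1 and JAG1 the overlap came from KYSE510 control library 2, the lowest control at both. Separation without that library follows from leaving out the lowest value, and nothing is read from it.

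**Figure D3:**
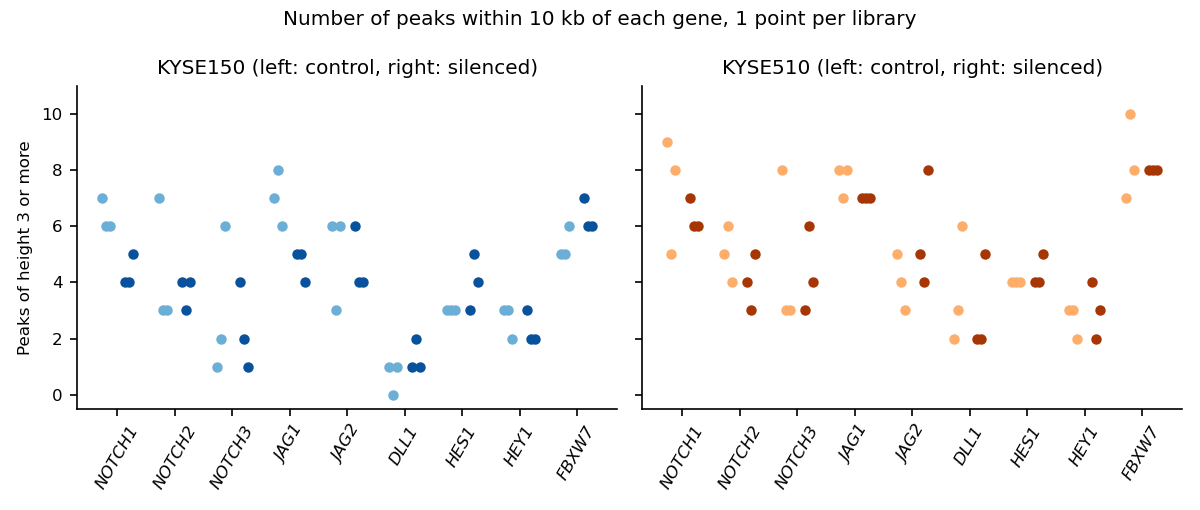
Number of peaks of height 3 or more within 10 kb of each gene (y axis), with 1 point per library, control on the left and silenced on the right of each gene. In KYSE150 the silenced points of NOTCH1 and JAG1 lie below all control points, and in KYSE510 control and silenced points overlap at each gene.

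Merging the peaks of all libraries gave 120 regions at the members, with 54 (45%) seen in a single library and 13 (10.8%) in all 12. Over the whole series the shares were 50.5% and 7.34% of 290571 regions. HES1 had the most constant landscape, with 3 of 6 regions in all 12 libraries, whereas JAG2 had 0 of 18 and DLL1 0 of 9. For silencing, peaks were merged within each line. Over regions called in all 6 libraries of a line, silencing called 0% of 27137 in KYSE150 and 0% of 46254 in KYSE510 (limma, 0 and 0 regions). At an unadjusted p under 0.05 there were 774 higher and 725 lower in KYSE150, and 2035 and 1693 in KYSE510. Member regions at that level in KYSE150 were in NOTCH2 (chr1:119967980-119968497, 1.19 ± 0.38) and NOTCH3 (chr19:15195370-15196367, 1.13 ± 0.33; limma adjusted p = 0.896 for each). In KYSE510 the NOTCH2 region went the other way (-0.94 ± 0.35, limma adjusted p = 0.537). A region upstream of NOTCH3 (chr19:15210270-15210914) was also lower there (-0.91 ± 0.29, limma adjusted p = 0.495).

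Some regions appeared in every control library of a line but no silenced one, or the reverse, a description chosen after seeing the data. In KYSE150, 2 of 29 member regions seen in 3 or more libraries were in all controls and no silenced library, against 1.63% of 54111 such regions in the line. The reverse pattern held 0 member regions and 0.61% of the line. Of the 2, the one 5.48 kb upstream of NOTCH1 (chr9:136551361-136551697) had 6, 3 and 4 units in controls. The other lies within JAG2, 3.41 kb downstream of its start (chr14:105165168-105165574), with 6, 8 and 8 units in controls.

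The JAG2 region was unevenly listed in KYSE510 as well. There it measured 9, 14 and 12 units in controls, and 7 units in 1 silenced library with no peak in the other 2. The regions described here were picked for their pattern, so no test is given for them. The adjoining JAG2 site, 2.33 kb from the start (chr14:105165889-105166995), held 5, 5 and 5 units against 5, 6 and 4 in KYSE150. In KYSE510 that site held 7, 8 and 9 units after silencing and a peak of 5 units in only 1 control library.

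In KYSE510, 1 of 44 member regions was in all controls and no silenced library, against 0.862% of 95180 regions in the line, and 2 were in all silenced libraries and no control, against 1.73%. The control-only region lies within FBXW7 (chr4:152408563-152408805), at 3 units in each control library. One silenced-only region lies within NOTCH2 (chr1:119929655-119930281), at 5, 8 and 8 units. The other lies within JAG2, 1.37 kb from the start (chr14:105167229-105167592), at 7, 5 and 11 units. At the NOTCH2 region, 2 of the libraries without a peak of height 3 or more had one of height 2. At the FBXW7 and JAG2 regions 0 had. Signal at a site in a library with no listed peak of any height was not measured. At HES1 the background of the listed peaks was 1.56 to 2.36 units in KYSE150 and 3.99 to 5.26 in KYSE510, and sites of 14 to 21 units in some KYSE510 libraries were unlisted in others.

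Between the lines, control libraries differed at 2 members. JAG1 ranked lower in KYSE510 and NOTCH3 ranked higher, while the other 6 tested members did not pass. Of 14924 genes tested, 13.3% were higher in KYSE510 and 12.2% lower by limma at an adjusted p under 0.05, so 1 member in each direction out of 8 is near that background. The median change of the members was 0.12, against -0.03 for all genes.

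JAG1 was at a mean percentile of 89.7 among genes in KYSE150 controls and 60.7 in KYSE510 controls, a score difference of -1.02 ± 0.23 (SE, n = 3 per line; limma adjusted p = 0.00627). Region by region, the ligand gene showed opposite differences, in a comparison added after seeing the data in which 10.5% of 27105 regions were higher and 9.81% lower in KYSE510. The site 2.34 kb downstream of the start (chr20:10671402-10671920) was the tallest JAG1 peak in all 6 KYSE150 libraries, with 36, 26 and 31 units in controls and 36, 18 and 25 after silencing. In KYSE510 it measured 13, 20 and 17 in controls and 20, 12 and 13 after silencing. Its rank was lower in KYSE510 by limma, at -1.21 ± 0.30 (adjusted p = 0.0165).

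The reverse held at a site 19.1 kb downstream of the JAG1 start (chr20:10654542-10655167). There the KYSE150 libraries measured 3, 3 and 5 units in controls and none, 3 and 4 after silencing, against 21, 19 and 12, and 18, 18 and 14, in KYSE510. The library given as none had a peak of height 2 there, under the cut of 3. The highest KYSE150 library (5 units) was below the lowest KYSE510 library (12 units), and the score difference in controls was 2.0 ± 0.32 (limma adjusted p = 0.00223). By fold enrichment the same site was higher by 2.53 ± 0.42 (limma adjusted p = 0.00422), from 3.13, 3.63 and 5.00 fold over background in KYSE150 controls to 14.1, 12.7 and 9.29 in KYSE510 controls. At the JAG1 promoter, with 23, 14 and 22 units in KYSE150 controls against 20, 18 and 20 in KYSE510 controls, the difference of -0.34 ± 0.28 did not pass (limma adjusted p = 0.428).

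The direction at JAG1 changed with the score used. Scored by fold enrichment, where the site 19.1 kb downstream leads in each KYSE510 library, the gene's difference was 0.19 (limma adjusted p = 0.741), and with a 50 kb window it was -0.33 (adjusted p = 0.290). The difference at the downstream site kept its call without any 1 control library (adjusted p = 0.00361 to 0.0128). That at the site 2.34 kb from the start lost it without KYSE150 control library 1 (adjusted p = 0.0528) or KYSE510 control library 1 (0.0688), and by fold enrichment (0.0801).

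NOTCH3 was at a mean percentile of 7.35 among genes in KYSE150 controls and 29.1 in KYSE510 controls, a score difference of 0.91 ± 0.24 (limma adjusted p = 0.0143). A site 5.13 kb downstream of the start (chr19:15195370-15196367) was in all 12 libraries, with 4, 5 and 4 units in KYSE150 controls and 9, 10 and 13 in KYSE510 controls. Its own difference was 0.98 ± 0.29 (limma adjusted p = 0.0335). A site 9.6 kb upstream (chr19:15210270-15210914) measured 11, 9 and 11 units in KYSE510 controls and 4, 7 and 7 after silencing, and had a peak of 4 units in 1 of the 6 KYSE150 libraries. Of the other KYSE150 libraries, 2 had a peak of height 2 there. The gene's call was lost in 5 of 13 alternatives. These were the fits without KYSE150 control library 3 (limma adjusted p = 0.0575) or KYSE510 control library 3 (0.0610), with absent peaks ranked lowest (0.0680), and with all 12 libraries (a difference of 0.41, adjusted p = 0.246). With a 50 kb window the NOTCH3 difference turned to -0.10 (adjusted p = 0.772). The site's call was lost on leaving out any 1 control library except KYSE510 control library 1 (limma adjusted p = 0.0357 to 0.113). It was lost by fold enrichment too (limma adjusted p = 0.0557).

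**Figure D4:**
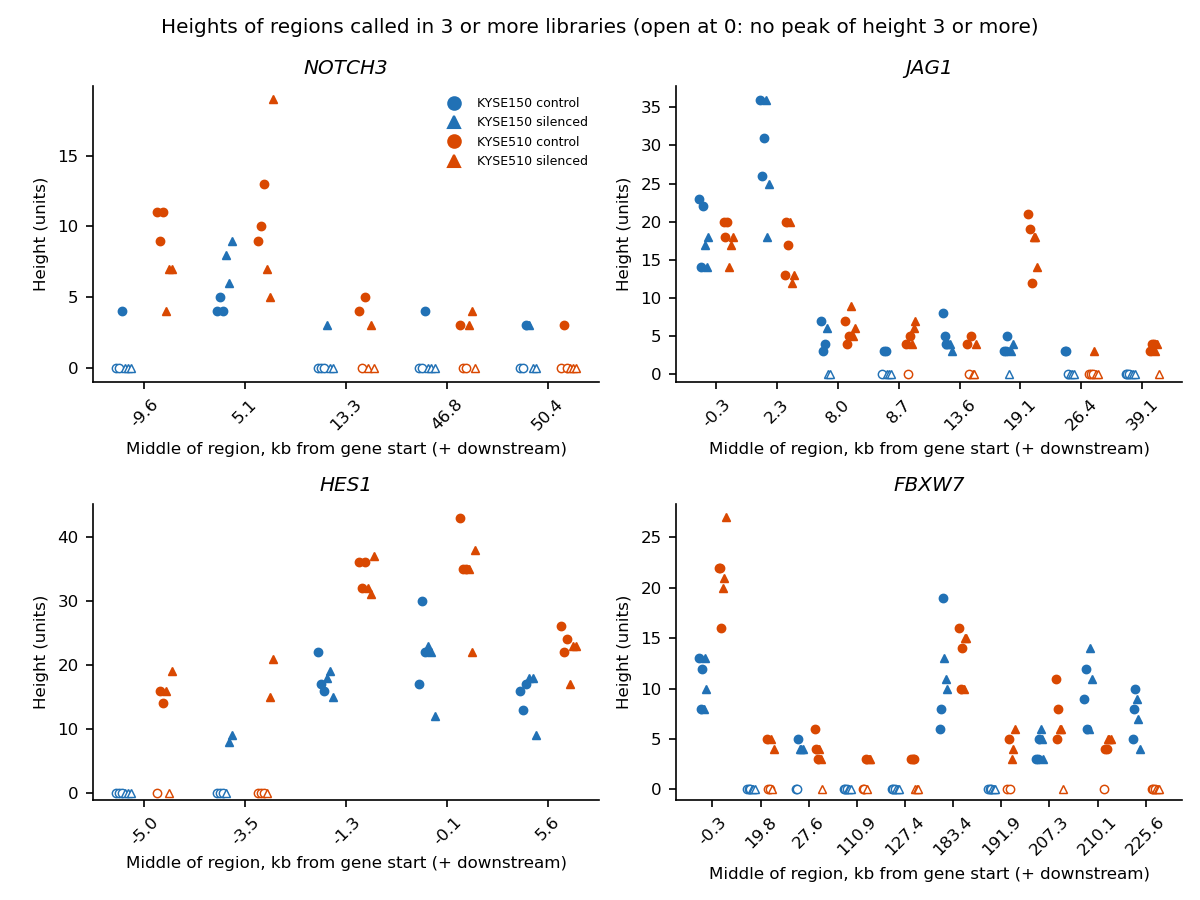
Heights (y axis, units) of each region called in 3 or more libraries at NOTCH3, JAG1, HES1 and FBXW7, placed in order by the distance of the region's middle from the gene start in kb. Circles are control and triangles silenced libraries, KYSE150 in blue and KYSE510 in orange, and an open symbol at 0 marks a library with no peak of height 3 or more. At JAG1 the KYSE150 points lead at 2.3 kb and the KYSE510 points lead at 19.1 kb.

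For the remaining receptors the lines were not separated by the test. NOTCH1 differed by 0.46 ± 0.23 (limma adjusted p = 0.160) and NOTCH2 by -0.72 ± 0.31 (adjusted p = 0.111), although NOTCH2 passed without KYSE150 control library 2, its lowest (-1.09, adjusted p = 0.0117), and with a 50 kb window (-1.0, adjusted p = 0.00265). Within NOTCH1, the site 6.17 kb downstream of the start (chr9:136539645-136540115) measured 3, 6 and 6 units in KYSE150 controls and 16, 13 and 9 in KYSE510 controls. Its difference of 1.08 ± 0.35 passed narrowly (limma adjusted p = 0.0484) and lost the call on leaving out any 1 control library (0.0581 to 0.172). By fold enrichment it did not pass either (limma adjusted p = 0.0769). A site 1.23 kb upstream of NOTCH1 (chr9:136546854-136547695) was listed in 5 of 6 KYSE510 libraries, at 6 to 16 units, and in no KYSE150 library.

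DLL1 was, with HES1, one of the 2 members whose heights did not overlap between lines. Over all 19074 genes with a peak, 23% were higher in KYSE510 without overlap in raw units and 1.54% lower. All 6 KYSE510 libraries had a site 1.31 kb outside its span (chr6:170279918-170280893), at 18, 11 and 15 units in controls and 17, 12 and 12 after silencing. No KYSE150 library had a peak there, and the tallest DLL1 peak in that line was 3 or 4 units in the 5 libraries that had one. Ranking absent peaks lowest gave a difference of 1.14 ± 0.22 between control libraries (limma adjusted p = 0.00147), while with a 50 kb window it was 0.19 (adjusted p = 0.546). Across the series, 10022 of 290571 regions were in all 6 KYSE510 libraries and no KYSE150 library, and 828 were the reverse. The window around DLL1 also holds part of FAM120B, which the recurrent KYSE150 peaks overlap.

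FBXW7 held the 1 member region with the reverse pattern. It lies 9.63 kb outside the span (chr4:152310153-152310911) and measured 5, 8 and 10 units in KYSE150 controls and 9, 7 and 4 after silencing, with no peak in any KYSE510 library. A site within FBXW7 (chr4:152325659-152326254) measured 6 to 14 units in KYSE150 and 4 or 5 in the 5 KYSE510 libraries that had it. At the upstream promoter the order was the opposite, with 13, 8 and 12 units in KYSE150 controls and 22, 22 and 16 in KYSE510 controls, a rank difference of 0.51 ± 0.29 that did not pass (limma adjusted p = 0.234). For the gene as a whole the difference was 0.08 ± 0.24 (adjusted p = 0.841).

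HES1 heights did not overlap between lines, at 15 to 30 units in KYSE150 and 31 to 43 in KYSE510, yet the rank difference was 0.26 ± 0.23 (limma adjusted p = 0.442). In raw units the control libraries of the lines did not overlap at any of the 3 constant HES1 sites, a separation that 28% of the 21340 regions in all 12 libraries shared, with 8.89% lower in KYSE510 without overlap. The promoter site, which covers both RBPJ cores printed above (chr3:194135854-194136324), measured 17, 30 and 22 units in KYSE150 controls and 43, 35 and 35 in KYSE510 controls. A site 1.26 kb upstream (chr3:194134481-194135303) measured 22, 17 and 16 against 36, 32 and 36, and one 5.58 kb downstream (chr3:194141019-194142434) 16, 13 and 17 against 26, 22 and 24. None passed by rank (limma adjusted p = 0.417, 0.176 and 0.457). By fold enrichment the difference was negative at all 3 and none passed. The promoter site measured 5.23, 10.1 and 7.06 fold in KYSE150 controls and 7.31, 6.5 and 6.36 in KYSE510 controls, a score difference of -0.28 (limma adjusted p = 0.691). The HES1 gene as a whole differed by -0.56 on that score (adjusted p = 0.254).

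HEY1 differed by -0.27 ± 0.29 (limma adjusted p = 0.538), and passed only with a 50 kb window (-0.67, adjusted p = 0.0258) among 13 alternatives. Its main site (chr8:79767750-79768737) was in all 12 libraries at 7 to 20 units. A second HEY1 site, 2.74 kb outside the span (chr8:79760901-79761267), was in 5 of 6 KYSE510 libraries at 4 to 10 units and in no KYSE150 library. JAG2 differed by 0.15 ± 0.26 (adjusted p = 0.710). The background of listed peaks within 1 Mb on each side, relative to the library's own, was 1.21 to 1.96 at HES1, 1.29 to 1.5 at NOTCH1 in KYSE150 and 1.56 to 1.89 at NOTCH1 in KYSE510. It was 0.667 to 0.933 at NOTCH2, and the ranges of the lines overlapped at JAG1 (0.786 to 1.2 and 0.824 to 1.06) and NOTCH3 (0.929 to 1.14 and 0.944 to 1.11). The part of such regional background in the heights was not tested.

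Other Notch pathway genes were read from a list of 43, of which 42 were matched in the gene table. After silencing, none was called in KYSE150 (37 tested, 3 at an unadjusted limma p under 0.05) or in KYSE510 (39 tested, 4 at that level). The largest differences in KYSE150 were at NUMBL, a relative of the Notch inhibitor NUMB, at 0.85 ± 0.26 (adjusted p = 0.809), and at the co-repressor SPEN, at -0.83 ± 0.30 (adjusted p = 0.884). In KYSE510 they were at POFUT1, which adds fucose to Notch receptors, at 0.77 ± 0.27 (adjusted p = 0.688), and at the protease ADAM10, at 0.73 ± 0.29 (adjusted p = 0.693). In the test of the difference between lines, SPEN (1.02 ± 0.38, limma adjusted p = 0.888) and DLL4, a Delta-like ligand (-1.01 ± 0.34, adjusted p = 0.854), had the largest values of this list.

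Between the lines, 10 of the 37 tested were higher and 4 lower in KYSE510 by limma, with a median change of 0.22, against 13.3% and 12.2% of all genes and a median of -0.03. Of the genes for receptor cleavage, 5 of 7 were higher and 1 lower, with a median of 0.97. The list was drawn up with earlier results of these data known, and no test of the group was made. PSEN2, a catalytic subunit of gamma-secretase, measured 5, 5 and 3 units in KYSE150 controls and 26, 16 and 18 in KYSE510 controls, a score difference of 1.77 ± 0.28 (adjusted p = 0.000900). FURIN, the protease that cuts the receptor during its maturation, measured 8, 12 and 12 against 32, 33 and 31, a difference of 1.22 ± 0.24 (adjusted p = 0.00324). ADAM10, which makes the first cut after ligand binding, went the other way, with 35, 27 and 32 units against 13, 12 and 17 and a difference of -1.58 ± 0.25 (adjusted p = 0.000848). The background of listed peaks within 1 Mb, relative to the library's own, moved with these differences. Its mean in KYSE150 and KYSE510 controls was 1.19 and 1.92 at APH1A, 1.29 and 2.04 at PSENEN and 1.27 and 1.66 at NCSTN. These are the other gamma-secretase subunits that were tested. The background mean was 0.944 and 1.26 at PSEN2, 1.37 and 1.54 at FURIN, and 1.16 and 0.856 at ADAM10. The part of this background in the cleavage genes' differences was not tested. APH1B, a further subunit on the list, had no peak in KYSE150 control library 2 and was not tested between the lines. Its heights were 6, none and 4 units in KYSE150 controls and 5, 3 and 6 in KYSE510 controls.

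Among genes of Notch turnover and trafficking, 3 of 10 were higher and 2 lower, against 13.3% and 12.2% of all genes. DTX2, a ubiquitin ligase of the Deltex family, had the largest difference in the list, with 55, 43 and 49 units in KYSE150 controls and 15, 16 and 12 in KYSE510 controls (-2.29 ± 0.23, limma adjusted p = 4.33e-05). NUMB, an inhibitor of Notch that is passed to one daughter cell in asymmetric division, measured 35, 22 and 35 against 110, 85 and 86 (1.28 ± 0.24, adjusted p = 0.00264). SNW1, a co-activator in the nuclear complex, measured 8, 7 and 5 against 30, 24 and 23 (1.51 ± 0.24, adjusted p = 0.000885). The mean regional background in KYSE150 and KYSE510 controls was 1.34 and 1.09 at DTX2, 1.27 and 1.26 at NUMB, and 1.17 and 1.56 at SNW1. RBPJ itself was not separated by the test, at -0.57 ± 0.24 (adjusted p = 0.0955).

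For each member except DLL1, the gene with the most similar scores over the 12 libraries was found among 14072 genes, by the root mean square of the score differences. FBXW7 was closest to BMP1 (0.168) and HES1 to ULBP3 (0.174). JAG2 was closest to TNN (0.207), NOTCH1 to RAD51C (0.232), JAG1 to INTS13 (0.233), HEY1 to LGALS1 (0.310), NOTCH2 to CTBS (0.371) and NOTCH3 to LOC112267968 (0.381). With 14072 genes to choose from, close values arise for most genes, and no test was made.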

How the data were processed

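ATAC-seq peak tables of 12 libraries were used, 3 per group. Per the submitters' processing notes the tools were Trimmomatic 0.36, Bowtie2 2.2.6, Picard 2.8.2, MACS2 2.1.1 and bedtools 2.25.0, with the build GRCh38. The deposited pileup is a signal, the height of the peak in whole units. Per the file headers, the fold enrichment is a ratio over local background, and each peak has a p-value and an FDR, with a largest deposited p-value of 0.00987 in every library. The authors deposited peak lengths, used here only as positions. No read counts were used, so depth is unknown and no counting interval was computed; local background was solved from height and fold enrichment.

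Peaks of height 3 or more on chromosomes 1 to 22, X and Y were assigned to genes within 10 kb of the RefSeq span. Tallest heights were ranked among protein-coding genes with a peak in every library of the comparison, turned into normal scores and fitted with limma 3.58.1 in R 4.3.3 (lmFit, eBayes, Benjamini-Hochberg adjustment over all genes, threshold 0.05). Regions were peaks merged at 1 bp overlap. Peaks of all 12 libraries were merged for the list of member regions and the comparison of the lines. Peaks of each line were merged separately for the silencing tests and for patterns of presence between treatments. Peak numbers were compared by a two-sided exact permutation test over 10 splits. Python 3.11.15, pandas 2.3.3, numpy 2.4.6, scipy 1.17.1 and matplotlib 3.10.9 were used, and the fits were tested on simulated data. Promoters came from RefSeq.

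The 9 genes, the lists, and the tests were chosen with earlier results of these data known. All 9 genes are named, with other pathway genes that were called (at most 6 by adjusted p per comparison) or else the 2 with the largest change, and the gene closest in score to each of the 9. Peaks near TLE1, NEURL1 and others that were called are counted and plotted only. One pathway gene and 1 marker gene of the planned lists are not reported here. Alternatives were a height of 5, an FDR of at most 0.05 in place of the height of 3, and windows of 0 and 50 kb. Fold enrichment or log2 height in place of rank, absent peaks ranked lowest and a replicate block were also used. The last were each library left out, a 100 bp merge, and regions called in at least 3 libraries.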

Additional observations from a re-analysis of the deposited data

How the results depend on the processing

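Silencing kept a count of 0 genes or regions under most alternatives. In KYSE510, 1 gene was called on fold enrichment, and 0 to 1 without single libraries. The line by silencing test called 2 genes with a 50 kb window and 0 to 1 without single libraries, and 36 regions (23 higher, 13 lower) were called in KYSE510 with absent peaks ranked lowest among regions in at least 3 libraries. None of these genes was on the Notch list. Between lines, 3811 genes became 1954 on fold enrichment, 5921 with all 12 libraries, and 2693 to 3145 without single libraries. The 5491 regions became 2683 on fold enrichment and 3509 to 4512 without single libraries, and all changed counts stand without a tested cause. JAG1 reversed to 0.19 on fold enrichment, which reads another of its peaks, and NOTCH3 to -0.10 with a 50 kb window, where the cause was not tested. Members separated by peak number in KYSE150 were 2, but 0 at a height of 5, 1 with the gene span alone, 1 with 50 kb, 5 per library peak (chosen after seeing the data), and 2 to 3 without single libraries. In KYSE510 they were 0, and 0 to 2 without single libraries. Per library peak, 2.66% of all genes were lower and 7.93% higher without overlap in KYSE150. The share of all genes that separated without single libraries was not counted, and nothing is read from those counts.

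Beyond the genes' own mean levels, same-numbered control and silenced libraries of a line correlated by only 0.015 to 0.096 across genes, so the numbers were not taken as pairs. With a replicate block, silencing called 0 genes and 0 regions in each line. By peak number, 2 members in KYSE150 differed in 1 direction in all 3 pairs, and the share of all genes that did so was not counted. A block could not be fitted between the lines, whose numbers are not shared samples. Depth is unknown, and the median tallest height was under 15 units at 7 of 9 members in KYSE150 and 6 of 9 in KYSE510. The smallest difference that 3 libraries per group could show at such heights was not measured.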
